A study of Mus musculus with 18 samples.

Results

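Neutrophils labelled CIS-/- were compared after 24 h and after 4 h in GM-CSF, the late and the early phase of their response to this growth factor. The comparison rests on 6 of the 18 libraries of the series, 3 at 24 h and 3 at 4 h, chosen by the genotype and time in their names. Between these times RNA rose for most of the tested chemokine, cytokine, NF-kB, immediate-early and sterol synthesis genes. All 45 tested members of a list of interferon-stimulated genes were lower at 24 h, together with most listed genes of the specific granules and of the cell cycle.

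GM-CSF (granulocyte-macrophage colony-stimulating factor) binds a receptor of an alpha chain (Csf2ra) and the common beta chain (Csf2rb). The Janus kinase JAK2 on that receptor activates the transcription factor STAT5, which in turn induces Cish. The protein made from Cish, CIS, is the founding member of the SOCS family of inhibitors that limit cytokine receptor signalling. In neutrophils, short-lived cells that leave the bone marrow loaded with granule proteins, GM-CSF is known for prolonging survival and for priming the release of inflammatory mediators.

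Neutrophils had been sorted by FACS from the bone marrow of mice aged 10 weeks and were cultured with 100 ng/mL GM-CSF in RPMI1640 with fetal calf serum. The 24 h and the 4 h libraries labelled CIS-/- come from mice labelled as lacking Cish, and the 24 h and 4 h WT libraries, also 3 each, serve here to test where the change over time differed by genotype. The labels do not give the deleted part of Cish, nor whether each replicate was a mouse of its own, so the p-values refer to the spread among libraries. Cultures without GM-CSF labelled 4 h or 24 h are not part of the data used here, so time in culture and time in GM-CSF cannot be told apart. The treatment label states 42 h, whereas titles and extraction protocol state 24 h, which was used. In such bulk samples a lower count can reflect fewer cells of a type or less RNA per cell, which cannot be told apart.

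Total counts were 14600432, 12170524 and 22539858 at 24 h and 12612313, 19164043 and 12841160 at 4 h, over 53379 genes. The 20 most abundant genes took between 16.2% and 17.3% of the counts of a library at 24 h and between 13.9% and 14.4% at 4 h. At 24 h, replicate 1 stood somewhat apart, with a chi-square per degree of freedom of 7.498 and 9.317 against the other two, against 2.544 between those. Values below are counts scaled to a common library size with TMM factors (CPM), as the mean ± SD over 3 libraries. Changes over time are log2 fold changes of 24 h over 4 h ± SE, so a value of 0 means a change like that of the average gene, and a gene is called where the edgeR adjusted p is under 0.05.

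The sorted cells carried their neutrophil markers at both times, at a lower level at 24 h. The summed level of the 15 markers lay between 39260 and 43902 CPM at 24 h and between 76927 and 82375 CPM at 4 h. Of these markers 13 fell and 2 rose, Itgam and Mmp9. Most defining genes of other cells were at or near 0. Among macrophage markers C1qb, Marco and Timd4 had no count in either group, and C1qa and Cx3cr1 stayed under 0.06 CPM. The summed level of the 13 monocyte and macrophage markers was between 1010 and 1049 CPM at 24 h and between 746 and 767 CPM at 4 h, nearly all of it from Adgre1, Csf1r and Ly6c2. The 10 stromal and endothelial markers summed to between 955 and 976 CPM at 24 h and between 456 and 463 CPM at 4 h, most of it from Pecam1; 6 of them had no count, while Col1a1 stood at 131 CPM at 24 h and 40.5 CPM at 4 h. The 12 eosinophil, basophil and mast cell markers summed to between 400.1 and 434 CPM at 24 h and between 202 and 205 CPM at 4 h, most of it Kit. Kit stood at 366 CPM at 24 h and 162 CPM at 4 h, and Siglecf at 34.3 CPM at 24 h and 9.30 CPM at 4 h. Of B cell markers only Ighm passed the filter, at 14.1 CPM at 24 h and 158 CPM at 4 h. The 13 T and NK cell markers together held no more than 1.29 CPM at 24 h and 4.09 CPM at 4 h, and the 10 dendritic cell markers no more than 13.8 CPM at 24 h and 24.5 CPM at 4 h. The 12 erythroid and megakaryocyte markers lay between 33.1 and 46.4 CPM at 24 h and between 81.5 and 115 CPM at 4 h. The part of these shifts in the results below was not tested.

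Cish (ENSMUSG00000032578.7, chromosome 9, 107296026 to 107302784, mm10), the targeted gene, was looked at first. Its level was 238, 243 and 233 CPM in the 24 h libraries and 243, 240 and 237 CPM in the 4 h libraries labelled CIS-/-. The groups overlapped, and the change of -0.01 ± 0.03 did not pass the test (edgeR adjusted p = 0.706). WT libraries held 1060 CPM at 24 h and 1149 CPM at 4 h, more than the libraries labelled CIS-/- at both times. Counts are given for each gene as a whole, so which part of Cish they come from was not tested. Gm17040, which overlaps Cish on the opposite strand and was named after its values were seen, stood at 23.8 CPM at 24 h and 33.5 CPM at 4 h. In unstimulated cells the libraries labelled CIS-/- held more Cish than WT. The labels do not give the deleted part of the gene, so this level alone cannot decide on the genotype. The name "labelled CIS-/-" is therefore kept throughout.

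Of 11569 genes tested, 8752 differed between 24 h and 4 h, which is 75.7% of all genes. Of these, 4368 were higher (37.8% of genes tested) and 4384 lower (37.9%) at 24 h. A change of at least 2-fold was found in 4140 genes (35.8%), 2049 of them higher (17.7%) and 2091 lower (18.1%). The 3 libraries at 24 h did not overlap the 3 at 4 h for 8688 genes (75.1%). The median of all genes was -0.01, and the middle 50% of genes lay between -0.70 and 0.69. With so many genes called, each list of genes below is read against these shares and by the size of its changes. The lists share members.

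**Figure D1:**
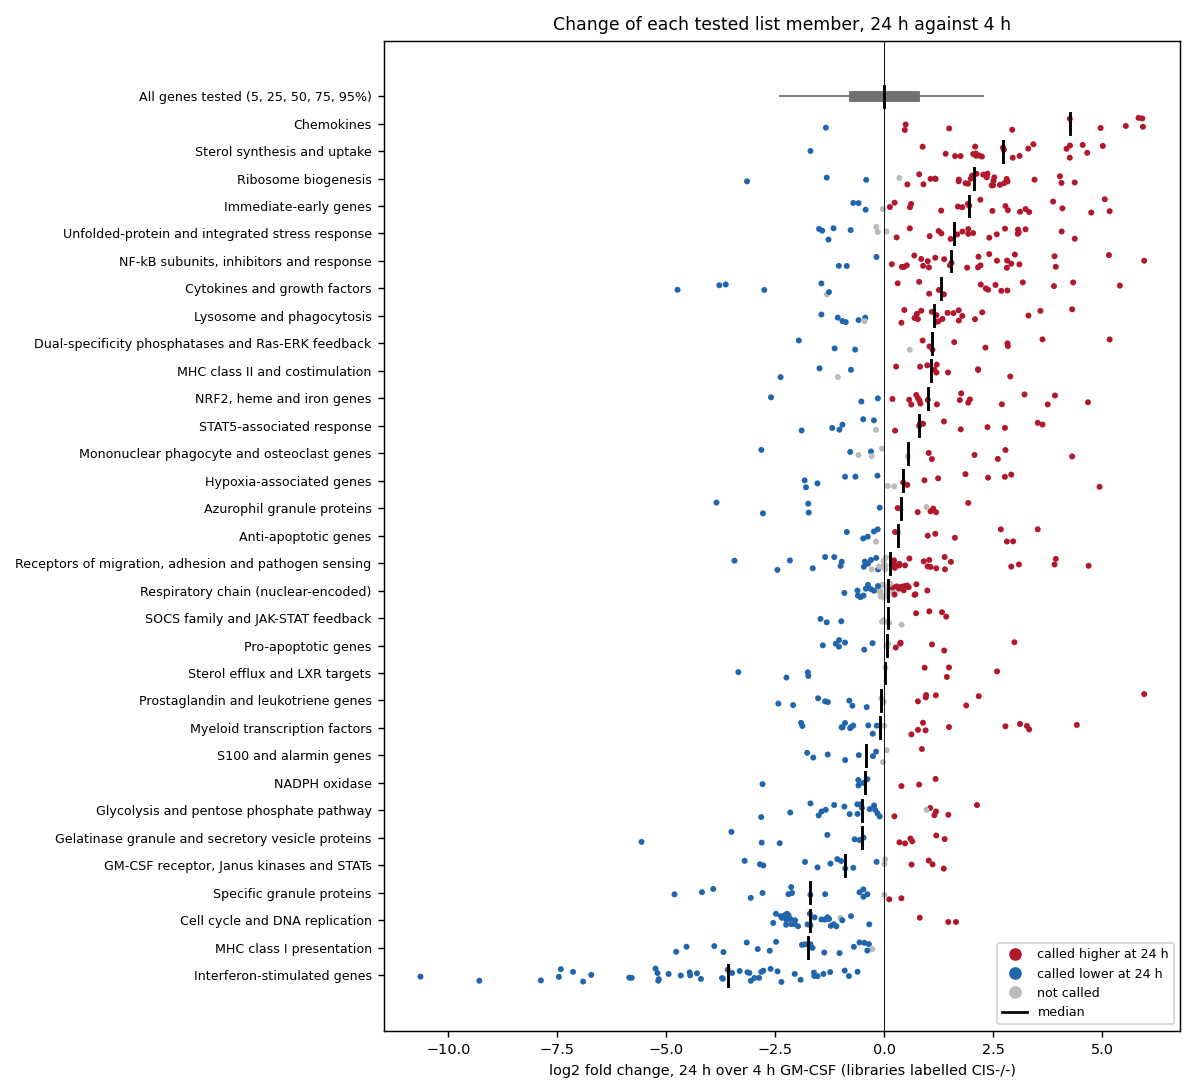
Log2 fold change (x axis, 24 h over 4 h) of each tested member of 32 gene lists (rows) in libraries labelled CIS-/-; points are genes, coloured by call, and black bars are list medians, with the spread of all genes tested in the top row. Chemokines lie highest, with a median of 4.26, and interferon-stimulated genes lowest, with a median of -3.59; the value of the leftmost point, Ifit3b, depends on the prior count because it had no count at 24 h.

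The feedback inhibitors of cytokine receptors moved in both directions. Of the 12 SOCS family and JAK-STAT feedback genes, 4 rose, 3 fell and 5 did not pass the test, with a median of 0.08. Socs3, which binds JAK-coupled receptors such as that for G-CSF, stood at 618, 620 and 620 CPM at 24 h, against 1556, 1545 and 1534 CPM at 4 h. All 24 h libraries were lower, by a log2 fold change of -1.32 ± 0.03 (edgeR adjusted p = 2.01e-44). Socs1, an inhibitor of interferon receptor signalling, fell to 107 ± 5.37 CPM at 24 h, against 294 ± 3.81 CPM at 4 h. In the other direction, Ptpn2, a phosphatase of JAK and STAT proteins, reached 76.1 ± 5.35 CPM at 24 h, against 28.3 ± 1.14 CPM at 4 h.

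Among the GM-CSF receptor, Janus kinase and STAT genes, 4 of 17 tested rose and 11 fell, with a median of -0.89. Csf2rb, the signalling chain of the receptor, had 1899, 1981 and 1883 CPM at 24 h and 1890, 1882 and 1903 CPM at 4 h. These values overlapped, and the change of 0.02 ± 0.03 did not pass the test (edgeR adjusted p = 0.498). The ligand-binding chain Csf2ra was higher in every 24 h library, at 1107 ± 28.5 CPM at 24 h and 716 ± 20.7 CPM at 4 h. Jak2 fell to 586 ± 31.5 CPM at 24 h, against 1165 ± 36.2 CPM at 4 h. Jak3 had the largest decrease of the list, with 1.92 ± 0.333 CPM at 24 h and 18.4 ± 0.970 CPM at 4 h (-3.20 ± 0.15). Stat2, which acts downstream of the interferon receptors, fell to 55.0 ± 4.73 CPM at 24 h, against 159 ± 3.92 CPM at 4 h. Stat5a, whose gene overlaps Stat3 on the opposite strand, had 9.40 CPM at 24 h and 15.2 CPM at 4 h.

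Genes associated with STAT5 activity were divided, with 10 of 17 tested rising and 6 falling. Pim1, a survival kinase induced by STAT5, was high at both times, with 1789, 1750 and 1763 CPM at 24 h and 1494, 1464 and 1500 CPM at 4 h. The libraries did not overlap, but the difference was small (0.25 ± 0.03, edgeR adjusted p = 1.57e-11). Larger rises were seen for Dusp5, a nuclear ERK phosphatase (1251 ± 38.2 CPM at 24 h and 101 ± 0.627 CPM at 4 h), Pim3 (3.52 ± 0.10) and Gadd45g (2.77 ± 0.06). Ccnd3, the gene of cyclin D3, fell to 210 ± 9.96 CPM at 24 h, against 779 ± 8.93 CPM at 4 h.

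**Figure D2:**
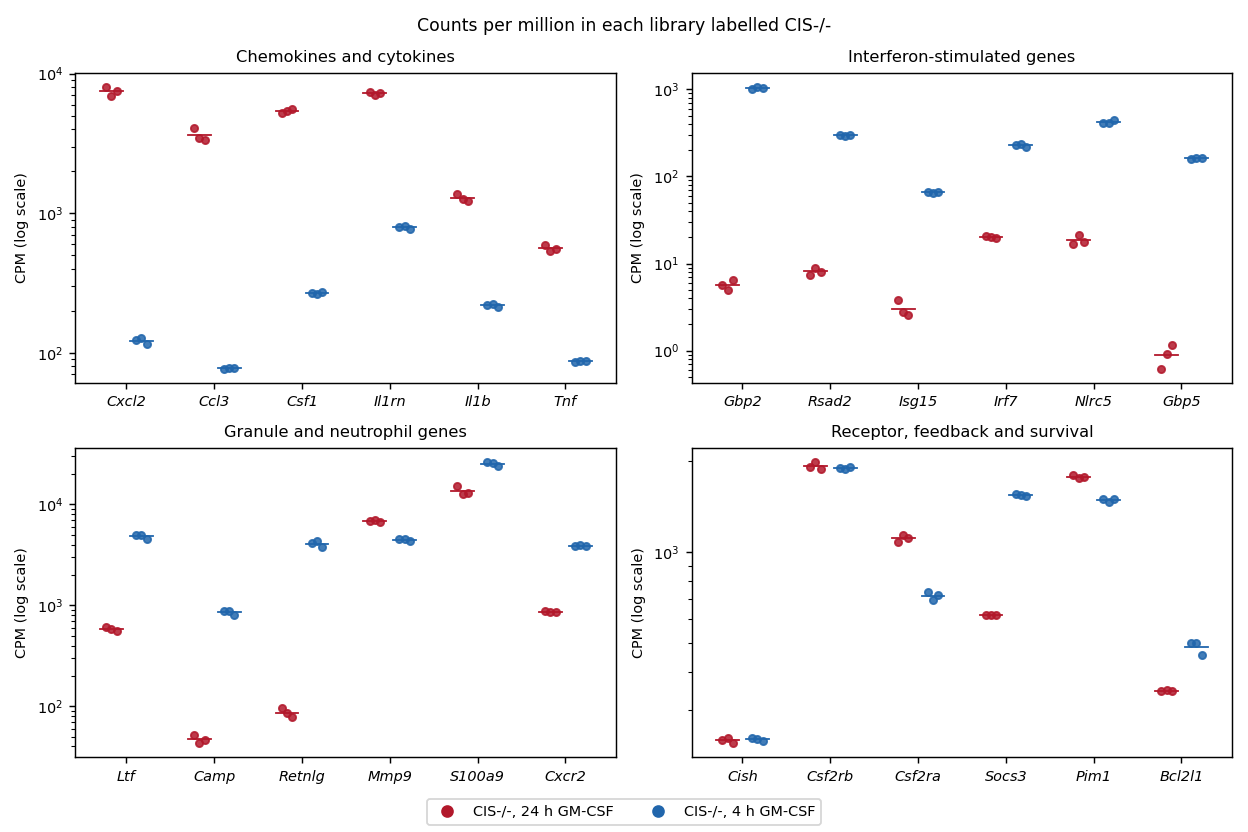
CPM on a log axis (y) in each library labelled CIS-/- for 24 named genes (x), with 24 h libraries in red left of 4 h libraries in blue and horizontal lines at the means. Chemokine and cytokine genes were higher in all 3 libraries at 24 h and interferon-stimulated genes lower in all 3, while the Cish and Csf2rb libraries overlapped.

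Chemokines had the highest median of the 32 lists. Of 11 tested chemokine genes, 10 rose, 8 of them at least 2-fold, and the median was 4.26, against -0.01 for all genes. The one that fell, Ccl24, was at most 0.870 CPM in any library and was named after its value was seen; the other 9 listed chemokines did not pass the filter on low counts. Cxcl2, a ligand of the neutrophil receptor CXCR2, stood at 7985, 6955 and 7507 CPM at 24 h, against 123, 127 and 115 CPM at 4 h. Each 24 h library was thus far above each 4 h library (5.94 ± 0.06, edgeR adjusted p = 1.13e-33). Its neighbour in function Cxcl3 reached 2809 ± 180 CPM at 24 h, against 46.0 ± 2.0 CPM at 4 h. Ccl3, which draws monocytes and other leukocytes, had 4054, 3476 and 3362 CPM at 24 h and 77.0, 78.1 and 77.9 CPM at 4 h. Ccl4, a closely related chemokine, rose less, to 746 ± 66.9 CPM at 24 h, against 97.1 ± 5.18 CPM at 4 h. Cxcl16 was low, with 21.5 ± 1.68 CPM at 24 h and 0.392 ± 0.145 CPM at 4 h.

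Cytokines and growth factors rose in 15 of 22 tested genes and fell in 6, with a median of 1.31. At least 2-fold, 13 rose and 6 fell. The 6 were Il18, Tnfsf13b, Il27, Il15, Hgf and Tnfsf14, with changes between -4.74 and -1.27, listed after their values were seen. The 9 others of the list, Il6, Il10, Csf2 and Csf3 among them, did not pass the filter on low counts. Csf1, the growth factor of the monocyte and macrophage lineage, stood at 5247, 5425 and 5541 CPM at 24 h, against 267, 264 and 271 CPM at 4 h. The groups lay far apart, with a log2 fold change of 4.34 ± 0.04 (edgeR adjusted p = 2.94e-66). Il1rn, the antagonist of the interleukin-1 receptor, had 7392, 7029 and 7215 CPM at 24 h and 796, 814 and 774 CPM at 4 h. The agonists of that receptor rose too. Il1b was at 1291 ± 75.2 CPM at 24 h and 220 ± 4.48 CPM at 4 h, and Il1a at 140 ± 8.97 CPM at 24 h and 9.41 ± 1.02 CPM at 4 h. Tnf rose by 2.69 ± 0.04, to 560 ± 30.8 CPM at 24 h, against 86.8 ± 1.16 CPM at 4 h. Il23a, the specific subunit of interleukin-23, had 40.5, 38.1 and 41.3 CPM at 24 h and was barely counted at 4 h, with 0.870, 0.979 and 0.936 CPM.

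Single genes with the largest rises among all called genes of at least 10 CPM included Shmt1 and Gdf15. Shmt1, a one-carbon metabolism enzyme, had 35.5 ± 0.912 CPM at 24 h and 0.134 ± 0.0834 CPM at 4 h (7.84 ± 0.22). It overlaps Smcr8 on the opposite strand, which itself stood at 541 CPM at 24 h and 117 CPM at 4 h, so its level is uncertain. Gdf15, a stress-induced cytokine of the TGF-beta superfamily, had 27.4 ± 2.40 CPM at 24 h and 0.192 ± 0.146 CPM at 4 h. Enpep, the gene of aminopeptidase A, followed with 14.8 ± 1.31 CPM at 24 h and 0.133 ± 0.182 CPM at 4 h. Zc3h12c, of the Regnase family of ribonucleases, had 63.0 ± 7.43 CPM at 24 h and 0.869 ± 0.289 CPM at 4 h, and Ciart, a repressor of the circadian clock, 36.4 ± 2.71 CPM at 24 h and 0.842 ± 0.0825 CPM at 4 h. Ptgs2, the inducible cyclooxygenase of prostaglandin synthesis, was the most abundant of those outside the chemokines, with 523, 541 and 541 CPM at 24 h and 7.57, 8.93 and 8.93 CPM at 4 h (5.97 ± 0.06, edgeR adjusted p = 4.87e-63). The list of prostaglandin and leukotriene genes did not move with it as a whole, since 7 of 17 tested rose and 8 fell. Its members Lta4h, which makes leukotriene B4, and Pla2g7 fell, by 2.09 and 2.43 on the log2 scale.

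NF-kB is a family of dimeric transcription factors held in the cytoplasm by inhibitor proteins whose genes it induces itself. Of 31 tested subunit, inhibitor and response genes, 28 rose and 3 fell, and 21 rose at least 2-fold, with a median of 1.55. Promoters of Nfkbia and Nfkb2 are shown because both genes rose and hold a match to the kB motif, GGG and 2 bases of any kind before TTTCC, or GGGA and 2 such bases before TTCC, on one of the strands. Each line gives the 250 bases before the start in RefSeq on GRCm38.p6, on the strand of the gene, at chr12:55492648-55492897 (minus) for Nfkbia and chr19:46304487-46304736 (plus) for Nfkb2. Capitals mark the match.
Nfkbia: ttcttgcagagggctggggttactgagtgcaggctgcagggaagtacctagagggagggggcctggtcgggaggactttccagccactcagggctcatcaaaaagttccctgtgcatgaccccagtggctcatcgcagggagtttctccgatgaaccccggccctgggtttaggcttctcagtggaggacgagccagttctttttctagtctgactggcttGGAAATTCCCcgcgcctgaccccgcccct
Nfkb2: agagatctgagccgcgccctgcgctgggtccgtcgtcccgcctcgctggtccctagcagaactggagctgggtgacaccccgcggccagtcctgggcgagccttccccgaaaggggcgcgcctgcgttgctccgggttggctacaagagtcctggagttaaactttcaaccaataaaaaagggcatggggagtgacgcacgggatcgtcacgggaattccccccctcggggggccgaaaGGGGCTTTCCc
On either strand, the motif was found in 4 of the 26 list genes that had a promoter sequence (15.4%), in 2.84% of the tested genes and in 2.26% of all 32851 promoters. A match describes letters only.

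Nfkbia, the gene of the inhibitor IkB-alpha, stood at 2400, 2085 and 2118 CPM at 24 h, against 261, 250 and 257 CPM at 4 h. No library overlapped, and the change was 3.10 ± 0.04 (edgeR adjusted p = 1.58e-56). Nfkb2, which encodes the p100 precursor of the subunit p52, had 386, 408 and 400 CPM at 24 h and 66.3, 65.6 and 66.7 CPM at 4 h. The subunit gene Nfkb1 went the other way, with 411 ± 17.8 CPM at 24 h and 844 ± 4.79 CPM at 4 h, as did Birc2 and Traf2; these 3 were named as the exceptions after their values were seen. Among response genes, Icam1, an adhesion molecule, reached 632 ± 13 CPM at 24 h, against 41.4 ± 3.12 CPM at 4 h. Ikbke, a kinase related to the IkB kinases, had 372 ± 17.6 CPM at 24 h and 10.3 ± 0.750 CPM at 4 h, and Ccrl2, a non-signalling chemerin receptor, 1636 ± 44.7 CPM at 24 h and 109 ± 2.95 CPM at 4 h.

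Immediate-early genes, which respond to signals without new protein synthesis, rose in 21 of 25 tested and fell in 3, with 17 at least 2-fold higher and a median of 1.95. Nr4a1, an orphan nuclear receptor, was at 151, 165 and 151 CPM at 24 h, against 5.13, 5.93 and 6.13 CPM at 4 h. Its relative Nr4a3 rose too (160 ± 8.70 CPM at 24 h and 4.75 ± 0.728 CPM at 4 h), and Egr1 rose by 2.78 ± 0.05. Fos was an exception in size, with 90.6 ± 1.14 CPM at 24 h and 76.5 ± 2.09 CPM at 4 h. The dual-specificity phosphatases and Ras-ERK feedback genes, which switch off MAP kinases, rose in 9 of 13 tested and fell in 3. Dusp1 stood at 1754 ± 19.5 CPM at 24 h and 245 ± 4.18 CPM at 4 h, and Dusp2 at 29.6 ± 1.95 CPM at 24 h and 0.852 ± 0.277 CPM at 4 h. Spry2, Dusp6 and Dusp7 were the members that fell, named after their values were seen.

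Interferon-stimulated genes encode antiviral effectors and sensors, and are induced through STAT and IRF factors that bind interferon-stimulated response elements. All 45 tested members were lower at 24 h, 42 of them at least 2-fold, and their median was -3.59; a further 8 listed genes did not pass the filter. The promoters of Ifit3b and Gbp3 are shown because these genes had the largest decreases of the list and hold the response element, GAAA and GAAA with 2 bases of any kind between them, here on the opposite strand. They are the 250 bases before the start in RefSeq on GRCm38.p6, at chr19:34607707-34607956 (plus) for Ifit3b and chr3:142559794-142560043 (plus) for Gbp3. Capitals mark the matches, of which Gbp3 has 2 that overlap.
Ifit3b: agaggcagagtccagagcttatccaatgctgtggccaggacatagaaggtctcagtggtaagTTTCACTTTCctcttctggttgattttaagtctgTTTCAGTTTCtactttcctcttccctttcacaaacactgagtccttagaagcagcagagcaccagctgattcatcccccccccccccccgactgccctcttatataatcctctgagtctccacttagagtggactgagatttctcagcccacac
Gbp3: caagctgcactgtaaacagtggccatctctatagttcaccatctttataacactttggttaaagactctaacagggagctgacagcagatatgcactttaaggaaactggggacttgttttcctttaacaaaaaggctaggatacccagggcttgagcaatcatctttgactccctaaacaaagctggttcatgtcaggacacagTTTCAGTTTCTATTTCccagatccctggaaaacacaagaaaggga
On either strand, the element was present in 20 of the 36 list genes that had a promoter sequence (55.6%), in 3.46% of the tested genes and in 2.98% of all promoters.

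Ifit3b, an antiviral tetratricopeptide gene, had no count in the 3 libraries at 24 h and 11.6, 12.1 and 13.2 CPM at 4 h. Set against a floor of 3 counts over the 24 h group, it was at least 179-fold lower at 24 h. Reads of Ifit3b and its near-identical copy Ifit3 may be divided between them, and Ifit3 was lower as well, with 0.0759 ± 0.0751 CPM at 24 h and 23.2 ± 0.937 CPM at 4 h. Gbp3, a guanylate-binding protein, had 3 counts in all at 24 h and 47.7 ± 4.33 CPM at 4 h, a ratio of 4 h over 24 h of 696 (95% counting interval 238 to 3375). Gbp2 of the same family was the abundant case, with 5.74, 4.97 and 6.46 CPM at 24 h and 1019, 1056 and 1036 CPM at 4 h. The groups were separated by a log2 fold change of -7.47 ± 0.06 (edgeR adjusted p = 1.29e-68). Rsad2, the gene of the antiviral protein viperin, had 7.36, 8.92 and 8.06 CPM at 24 h and 297, 294 and 301 CPM at 4 h. Isg15, a ubiquitin-like modifier, fell to 3.04 ± 0.668 CPM at 24 h, against 65.9 ± 0.888 CPM at 4 h. Irf7, a transcription factor that amplifies type I interferon, fell to 20.3 ± 0.532 CPM at 24 h, against 228 ± 7.93 CPM at 4 h. The list members Gbp5, Herc6 and Ifi47 had changes between -7.42 and -6.72. Outside the list, Plac8 and the adhesion molecule Mcam fell by 6.92 and fell by 6.54 on the log2 scale. Chil5, a chitinase-like gene, had 2 counts in all at 24 h and 10.0 ± 0.884 CPM at 4 h, a ratio of 4 h over 24 h of 219.9 (95% counting interval 60.9 to 1816).

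MHC class I presentation moved in the same direction, with 19 of 20 genes lower, 14 of them at least 2-fold, and a median of -1.75. Nlrc5, the transactivator of class I genes, had 16.6, 21.4 and 17.5 CPM at 24 h and 415, 411 and 446 CPM at 4 h. The immunoproteasome subunits Psmb8, Psmb9 and Psmb10 fell to 13, 3.34 and 3.47 CPM at 24 h, against 194, 89.4 and 45.1 CPM at 4 h. Psmb9 overlaps Tap1 on the opposite strand, which fell too. In the list of class II and costimulation genes, 10 of 14 tested rose and 3 fell, with a median of 1.07. Of its class II genes, H2-Aa, H2-Eb1, H2-DMa and Cd74 rose, by between 0.99 and 1.47, and H2-Ab1 fell (-0.76). H2-DMb1 did not pass the test, and Ciita did not pass the filter. H2-Aa was low, at 6.27 CPM at 24 h and 2.79 CPM at 4 h. These class II genes were named after their values were seen. Cd274, the gene of the inhibitory ligand PD-L1, stood at 1496, 1513 and 1512 CPM at 24 h, against 331, 335 and 348 CPM at 4 h (2.16 ± 0.03, edgeR adjusted p = 1.64e-53). Pdcd1lg2, the gene of PD-L2, had 89.9 ± 4.25 CPM at 24 h and 12 ± 1.14 CPM at 4 h, with a transcript on the opposite strand that rose as well. Ctss, the protease that trims the class II invariant chain, fell to 60.9 ± 5.29 CPM at 24 h, against 315 ± 7.83 CPM at 4 h.

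Granule proteins are made in waves during neutrophil maturation, azurophil first, then specific and then gelatinase granules. Specific granule genes fell in 14 of 17 tested, 10 of them at least 2-fold, and rose in 2, with a median of -1.69. Ltf, the gene of the iron-binding protein lactoferrin, had 604, 577 and 559 CPM at 24 h and 4977, 4974 and 4578 CPM at 4 h. All 24 h libraries were lower (-3.06 ± 0.03, edgeR adjusted p = 5.48e-61). Camp, which encodes the antimicrobial cathelicidin, fell by 4.18 on the log2 scale, Ngp fell by 3.92 and Lrg1 fell by 4.81. Among gelatinase granule and secretory vesicle genes 8 of 14 tested fell and 6 rose. Retnlg, a resistin-like gene, had 95.5, 86.6 and 78.1 CPM at 24 h and 4160, 4294 and 3818 CPM at 4 h, while Mmp9, the gelatinase itself, rose to 6818 ± 142 CPM at 24 h, against 4487 ± 110 CPM at 4 h. Azurophil granule genes were divided, 6 of 13 rising and 5 falling. Cd63, a membrane protein of those granules, rose by 1.93 ± 0.04, and Serpinb1a, an inhibitor of neutrophil elastase, fell to 20.5 ± 0.978 CPM at 24 h, against 293 ± 3.38 CPM at 4 h.

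The NADPH oxidase makes superoxide from a membrane core and cytosolic subunits. Of its 8 genes 3 rose and 5 fell. Cybb, the catalytic core gp91phox, had 59.8, 60.0 and 62.5 CPM at 24 h and 420, 434 and 411 CPM at 4 h, a change of -2.79 ± 0.04. The cytosolic subunit genes differed less and in both directions, with Ncf1 at 1596 ± 22.3 CPM at 24 h and 2409 ± 28.7 CPM at 4 h, and Ncf4 at 428 ± 27.6 CPM at 24 h and 245 ± 0.764 CPM at 4 h. The proton channel gene Hvcn1 rose by 1.18 ± 0.05. Of 10 tested S100 and alarmin genes 7 fell and 1 rose. S100a9, a subunit of calprotectin, was at 15296, 12599 and 13039 CPM at 24 h, against 26351, 25728 and 24044 CPM at 4 h. Its partner S100a8 fell to 10121 ± 968 CPM at 24 h, against 15149 ± 777 CPM at 4 h.

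Receptors of migration, adhesion and pathogen sensing changed in both directions, with 21 of 42 tested rising and 14 falling and a median of 0.13. Cxcr2, the receptor of Cxcl2 and Cxcl3, stood at 870, 864 and 866 CPM at 24 h, against 3831, 3929 and 3883 CPM at 4 h. It was thus lower (-2.16 ± 0.03, edgeR adjusted p = 1.21e-55) in the libraries where its ligands were higher. Cxcr4, the receptor that retains neutrophils in bone marrow, changed little, with 258 ± 19.5 CPM at 24 h and 291 ± 5.69 CPM at 4 h. Clec4n, the gene of the fungal receptor dectin-2, had the largest rise of the list, with 5249, 4739 and 4718 CPM at 24 h and 191, 200 and 177 CPM at 4 h. Itga4, an integrin chain, had 2.13 ± 0.504 CPM at 24 h and 23.6 ± 1.5 CPM at 4 h.

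Survival genes moved in both directions, with the larger changes of the anti-apoptotic genes upward. Of 15 tested anti-apoptotic genes 8 rose and 5 fell, with a median of 0.32. At least 2-fold, 7 rose and 0 fell, and the changes of those that fell lay between -0.86 and -0.15. Mcl1, on which neutrophil survival depends, was at 1949 ± 71.7 CPM at 24 h and 2296 ± 15.5 CPM at 4 h, and Bcl2l1, the gene of Bcl-xL, at 348 ± 1.26 CPM at 24 h and 485 ± 25 CPM at 4 h. The A1 genes Bcl2a1a, Bcl2a1b and Bcl2a1d rose by 2.68, 2.96 and 2.82; they are near-identical copies, so the division of reads among them is uncertain. Pro-apoptotic genes rose in 6 of 15 tested and fell in 7, with 3 at least 2-fold higher and 4 at least 2-fold lower. Pmaip1, the gene of the MCL1 antagonist NOXA, stood at 184, 176 and 184 CPM at 24 h, against 22.3, 22.3 and 24.0 CPM at 4 h, and Bax, a pore-forming effector, rose by 1.38 ± 0.05. The other effector gene, Bak1, fell by 1.11 ± 0.05.

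Sterol synthesis and uptake is driven by SREBP2, which is released from the endoplasmic reticulum when sterol is low. Of 23 tested genes 22 rose, 21 of them at least 2-fold, with a median of 2.73; the exception, Tm7sf2, was at most 1.91 CPM in any library and was named after its value was seen. The promoter of Hmgcs1, an early enzyme of the pathway that rose, is shown because it alone among the 16 list genes with a promoter sequence (6.2%) held a match to the sterol regulatory element, TCAC and CCAC with 1 base between them, on either strand, which 1.23% of the tested genes and 1.04% of all promoters held. It is the 250 bases before the start in RefSeq on GRCm38.p6, chr13:119690101-119690350 (plus), with the match in capitals.
Hmgcs1: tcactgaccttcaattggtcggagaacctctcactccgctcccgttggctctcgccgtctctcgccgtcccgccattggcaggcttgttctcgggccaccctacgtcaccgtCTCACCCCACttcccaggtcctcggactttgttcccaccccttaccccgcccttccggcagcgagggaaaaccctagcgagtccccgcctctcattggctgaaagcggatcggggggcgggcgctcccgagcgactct
Sqle, which makes squalene epoxide, stood at 91.5, 95 and 90.7 CPM at 24 h, against 3.22, 4.09 and 3.40 CPM at 4 h. The groups did not overlap, and the change was 4.66 ± 0.09 (edgeR adjusted p = 1.1e-47). Insig1, a sterol sensor that holds SREBP back, rose by 4.27 ± 0.07, and Cyp51, a demethylase of the pathway, by 4.56 ± 0.07. Sterol efflux and LXR target genes were split, with 4 of 9 tested rising and 4 falling. Abca1, the cholesterol exporter, had 4.42, 7.63 and 5.90 CPM at 24 h and 57.7, 61.9 and 60.3 CPM at 4 h, and Apoe and Mylip fell too, by 2.24 and 1.75 on the log2 scale. Scd2, a fatty acid desaturase, rose by 2.59 ± 0.16.

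Stress responses of the endoplasmic reticulum and of oxidation rose for the larger part. Of 28 tested unfolded-protein and integrated stress response genes 20 rose and 5 fell, with a median of 1.6. Those that fell were Trib3, Asns, Sesn2, Psat1 and Xbp1, with changes between -1.49 and -0.77. All of them but Xbp1 were named after their values were seen. Ppp1r15a, which restores translation by dephosphorylating eIF2-alpha, had 209, 183 and 199 CPM at 24 h and 8.96, 9.39 and 10.2 CPM at 4 h. The chaperone gene Hsp90b1 rose by 3.07 ± 0.04 and the co-chaperone gene Dnajb9 by 3.09 ± 0.06, whereas Xbp1, a transcription factor of the response, fell to 1048 ± 22.9 CPM at 24 h, against 1787 ± 21.1 CPM at 4 h. NRF2, heme and iron genes rose in 18 of 21 tested and fell in 3, with a median of 1.0. Prdx1, a peroxiredoxin, had 259, 237 and 231 CPM at 24 h and 8.09, 10.6 and 9.19 CPM at 4 h. Gclc, the catalytic subunit of glutathione synthesis, rose by 3.75 ± 0.06, and Hmox1, which degrades heme, by 1.21 ± 0.03, to 1541 ± 73.6 CPM at 24 h, against 666 ± 8.31 CPM at 4 h.

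Lysosome and phagocytosis genes rose in 21 of 28 tested and fell in 6, with a median of 1.15. Gpnmb, a lysosomal glycoprotein of phagocytes, had 339, 326 and 310 CPM at 24 h and 15, 16.6 and 17.2 CPM at 4 h. Lipa, the acid lipase that frees cholesterol from its esters, rose by 3.59 ± 0.04, and Psap, the precursor of the saposins, reached 8122 ± 187 CPM at 24 h, against 1706 ± 26.8 CPM at 4 h. Of 31 mononuclear phagocyte and osteoclast genes 13 passed the filter, of which 6 rose and 3 fell. Adgre1, which encodes F4/80, had 765, 798 and 767 CPM at 24 h and 126, 129 and 126 CPM at 4 h, and Csf1r, the receptor of Csf1, 169 ± 4.87 CPM at 24 h and 83.2 ± 1.77 CPM at 4 h. Ly6c2 fell to 77.5 ± 6.36 CPM at 24 h, against 545 ± 8.01 CPM at 4 h. Nfatc1, the osteoclast regulator, was at 159 ± 4.58 CPM at 24 h and 165 ± 4.96 CPM at 4 h, a change that did not pass the test (edgeR adjusted p = 0.272). Myeloid transcription factors rose in 10 of 22 tested and fell in 11. Atf3, a stress-induced repressor, stood at 976 ± 29.1 CPM at 24 h and 97.2 ± 1.78 CPM at 4 h, Batf3 at 48.5 ± 1.92 CPM at 24 h and 2.21 ± 0.336 CPM at 4 h, and Mitf rose by 3.28 ± 0.07.

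Ribosome biogenesis, the making of ribosomal RNA and its assembly in the nucleolus, rose in 28 of 32 tested genes and fell in 3, with a median of 2.07. Gnl3, the gene of the nucleolar GTPase nucleostemin, had 50.1, 44.4 and 48.0 CPM at 24 h and 2.43, 2.19 and 2.30 CPM at 4 h. Nolc1 and Ddx21, nucleolar factors of RNA polymerase I transcription, rose by 4.03 and 2.83. Polr1a, the largest subunit of that polymerase, went the other way, with 7.67 ± 0.368 CPM at 24 h and 67.7 ± 2.72 CPM at 4 h. Myc, a driver of ribosome genes in many cells, was low at both times (3.81 ± 0.608 CPM at 24 h and 0.767 ± 0.414 CPM at 4 h). The 40 nuclear-encoded respiratory chain genes moved little, 14 rising and 10 falling, with changes between -0.91 and 0.99. Glycolysis and pentose phosphate genes fell in 18 of 25 tested and rose in 6, with a median of -0.51. The largest rise of the list was 2.13, for Tpi1, which overlaps Spsb2 on the opposite strand. Slc2a3, the glucose transporter GLUT3, fell to 121 ± 3.44 CPM at 24 h, against 541 ± 11.3 CPM at 4 h, and Ldha, lactate dehydrogenase A, to 144 ± 2.65 CPM at 24 h, against 363 ± 18.7 CPM at 4 h. Hypoxia-associated genes rose in 9 of 17 tested and fell in 6. The 6 were Mxi1, Ndrg1, Bnip3, Hif1a, Egln3 and Slc2a1, with changes between -1.83 and -0.15, listed after their values were seen. Hilpda, a lipid droplet protein, had 45.1 ± 4.82 CPM at 24 h and 1.37 ± 0.557 CPM at 4 h, and Vegfa, the vascular growth factor, rose by 2.39 ± 0.05. Cell cycle and DNA replication genes fell in 30 of 34, with a median of -1.70; Top2a, a topoisomerase of dividing cells, had 5.70 ± 1.41 CPM at 24 h and 27.4 ± 1.38 CPM at 4 h. The 3 that rose were Pcna, Cdc25b and Mcm7, the last named after its value was seen.

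WT neutrophils over the same interval were set beside these changes, and the difference between the 2 changes was tested as an interaction of time and genotype. In WT, 8714 genes were called between 24 h and 4 h (75.3% of genes tested), 4128 higher (35.7%) and 4586 lower (39.6%) at 24 h. Of these, 3463 changed at least 2-fold (29.9%). Of the 11569 genes, 2240 were higher at 24 h in both genotypes and 2760 lower in both. A further 1171 were higher in libraries labelled CIS-/- and lower in WT, and 826 were lower in libraries labelled CIS-/- and higher in WT. With a change of at least 2-fold in each genotype, these counts were 164 and 88. The time by genotype test called 7633 genes (66% of genes tested), 3922 with a more positive change in libraries labelled CIS-/- (33.9%) and 3711 with a more negative one (32.1%). The split depends on scaling. With TMM factors 51.4% of these calls were positive, and with raw library sizes 26.7%, where the median difference of all genes shifted to -0.53. The genotype comparisons above and below therefore hold relative to the average gene.

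**Figure D3:**
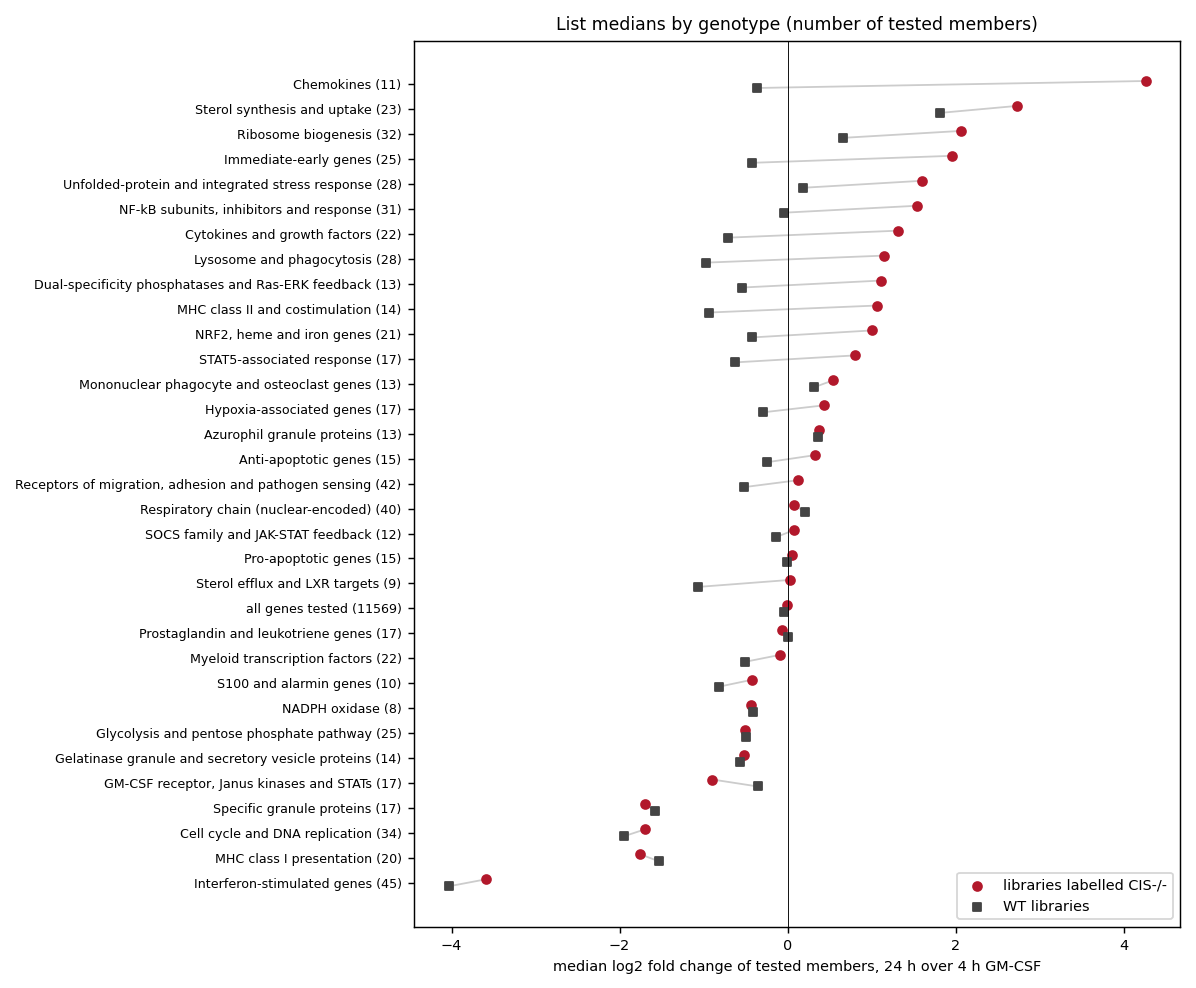
Median log2 fold change (x axis, 24 h over 4 h) of the tested members of each list (rows, with their number), red circles for libraries labelled CIS-/- and dark squares for WT libraries. Interferon-stimulated genes lie far below 0 in both genotypes, at -3.59 and -4.03, whereas chemokines stand at 4.26 in libraries labelled CIS-/- and -0.36 in WT.

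The decrease of interferon-stimulated genes was shared: 45 of 45 were lower in libraries labelled CIS-/- and 44 of 45 in WT. In the time by genotype test 21 had a more positive and 11 a more negative change in libraries labelled CIS-/-, which turned to 9 positive and 20 negative with raw library sizes. Sterol synthesis rose in 22 of 23 genes in libraries labelled CIS-/- and in 22 of 23 in WT, with 16 changes more positive and 2 more negative in libraries labelled CIS-/-, and 13 and 4 with raw library sizes. Cell cycle genes fell in 30 of 34 in libraries labelled CIS-/- and in 29 of 34 in WT, and specific granule genes in 14 of 17 in libraries labelled CIS-/- and in 16 of 17 in WT.

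Several lists leaned the same way under both scalings in the genotype test. The change of NF-kB genes was more positive in libraries labelled CIS-/- for 29 of 31 and more negative for 2, against 27 and 2 with raw library sizes, and their WT median was -0.05. For chemokines 9 of 11 changes were more positive under either scaling, and the WT median was -0.36. Cytokines and growth factors were more positive for 16 of 22 and more negative for 3, against 15 and 5 with raw library sizes. Immediate-early genes were more positive for 22 of 25 and more negative for 1, against 20 and 4. Lysosome genes were more positive for 27 of 28 and more negative for 1, against 22 and 3, and NRF2, heme and iron genes for 20 and 1 of 21, against 17 and 4. In WT, 23 of 28 lysosome genes and 15 of 21 NRF2, heme and iron genes were lower at 24 h. Respiratory chain genes ran the other way, with 7 of 40 changes more positive and 18 more negative in libraries labelled CIS-/-, and 1 and 33 with raw library sizes.

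**Figure D4:**
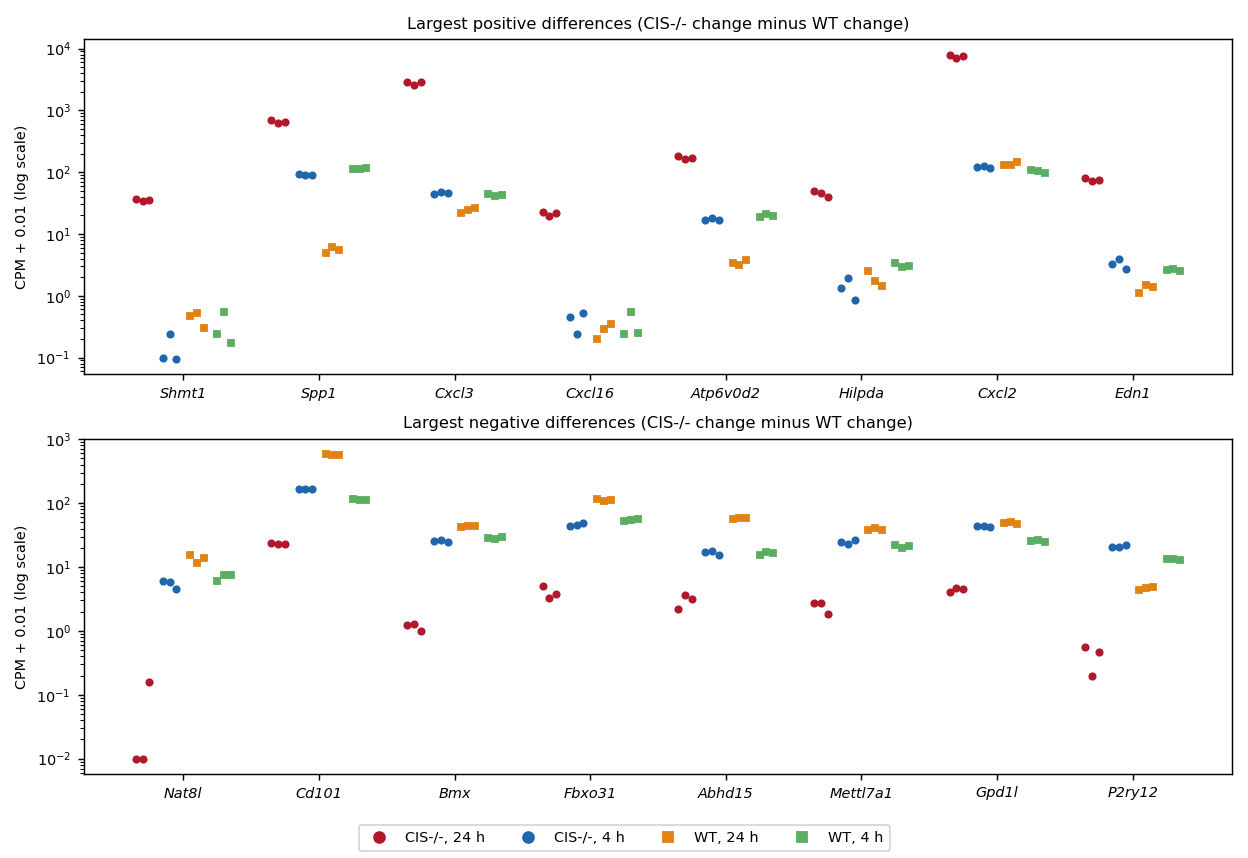
CPM plus 0.01 on a log axis (y) in each library for the 8 genes at each end of the time by genotype difference (x), in the order CIS-/- 24 h, CIS-/- 4 h, WT 24 h, WT 4 h. In the upper panel the 24 h libraries labelled CIS-/- lie above all other libraries; in the lower panel they lie below all others.

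Spp1, the gene of osteopontin, gave one of the largest differences. Its 24 h level was 652 ± 32.7 CPM in libraries labelled CIS-/- and 5.57 CPM in WT, and its 4 h level 91.9 ± 1.65 CPM in libraries labelled CIS-/- and 115 CPM in WT. It thus rose in libraries labelled CIS-/- and fell in WT, a difference of 7.18 ± 0.07 (edgeR adjusted p = 2.23e-61). Cxcl2 in WT stood at 135 CPM at 24 h and 103 CPM at 4 h, so that its change differed by 5.55 ± 0.07 between genotypes (edgeR adjusted p = 1.21e-29). Csf1, with 198 CPM at 24 h and 212 CPM at 4 h in WT, differed by 4.43 ± 0.05. Atp6v0d2, a proton pump subunit prominent in osteoclasts, had 170 ± 11.6 CPM at 24 h and 17.1 ± 0.735 CPM at 4 h in libraries labelled CIS-/-, against 3.42 CPM at 24 h and 19.6 CPM at 4 h in WT.

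Cd101, an inhibitory receptor carried by mature mouse neutrophils, was the most abundant at 24 h in libraries labelled CIS-/- of the 8 genes named at the negative end. In libraries labelled CIS-/- it had 23.8, 22.9 and 22.7 CPM at 24 h and 166, 164 and 168 CPM at 4 h, while WT libraries held 575 CPM at 24 h and 112 CPM at 4 h. Its change differed by -5.20 ± 0.06 (edgeR adjusted p = 3.55e-60). Bmx, a kinase of the Tec family, had 1.18 ± 0.154 CPM at 24 h and 25.6 ± 1.0 CPM at 4 h in libraries labelled CIS-/-, against 43.3 CPM at 24 h and 28.8 CPM at 4 h in WT. Gpd1l, related to glycerol-3-phosphate dehydrogenase, fell in libraries labelled CIS-/- to 4.42 ± 0.293 CPM at 24 h, against 43.7 ± 0.779 CPM at 4 h, and in WT had 49.4 CPM at 24 h and 25.3 CPM at 4 h. The other genes named at that end are Nat8l, Fbxo31, Abhd15, Mettl7a1 and P2ry12, with differences between -7.11 and -4.14.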

How the data were processed

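The authors deposited raw counts of reads for each Ensembl gene; Trimmomatic, STAR, featureCounts and mm10 are named in, and credited to, the submitters' processing notes. The kit was strand-specific, per the labels' protocols; the strand setting of the counting, the versions and the annotation release (not given in the sources used here) are open. GENCODE M21 gave names for 53274 of the 53379 gene IDs. Of 173 named genes, 27 overlap another gene on the opposite strand and 4 on the same strand, and their levels are uncertain where reads are shared.

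Genes were filtered with filterByExpr by group in edgeR 4.0.16 (R 4.3.3), which left 11569 genes with 99.93% of the counts. With TMM factors, all 18 libraries entered 1 quasi-likelihood fit with a mean for each of 6 groups (robust prior, 12 residual degrees of freedom, common biological coefficient of variation 3.3%). The CIS-/- 24 h minus 4 h contrast, the WT contrast and their difference were tested two-sided; a gene was called at a Benjamini-Hochberg adjusted p under 0.05. Counting intervals cover counting error only. Lists have no test and are given as counts and medians.

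Genes named are Cish, the 10 largest rises and 10 largest falls among called genes of at least 10 CPM whose libraries do not overlap (clones, predicted genes and pseudogenes left out), the 4 largest called changes per list, a fixed set of anchor genes, and the 8 largest differences in each direction of the time by genotype test. Marker genes, and the genes said to be named after their values were seen, come in addition; a few genes that this rule names are not reported here. The members, lists and tests were chosen with earlier results of these data known. The pipeline was tested on simulated data in which, unlike here, most genes did not change. Changes were placed in 50 genes for each size, all above a minimum mean count, so the recovery does not cover genes of low counts. Changes of 2-fold were recovered for 98% of changed genes over time and for 88% in the time by genotype test. At 1.25-fold these shares were 56% and 36%. False calls made up 7.1% and 5.1% of the calls. Alternatives were RLE factors, raw library sizes, DESeq2 1.42.0, limma-voom (limma 3.58.1), no filter, a filter of 50 counts in 3 libraries, a non-robust prior, the compared groups only, a replicate block and each library left out. Promoter sequences are from RefSeq (GRCm38.p6).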

Additional observations from a re-analysis of the deposited data

Results flagged for a closer look

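The change between 24 h and 4 h differed by genotype, tested as an interaction in edgeR, for 7633 genes. The largest positive differences (change in libraries labelled CIS-/- minus change in WT, log2) were 7.40 for Shmt1, 7.18 for Spp1, 6.76 for Cxcl3, 6.20 for Cxcl16, 5.84 for Atp6v0d2, 5.66 for Hilpda, 5.55 for Cxcl2 and 5.46 for Edn1, the gene of the vasoconstrictor endothelin-1. Edn1 had 76.1 ± 5.52 CPM at 24 h and 3.29 ± 0.600 CPM at 4 h in libraries labelled CIS-/-, and 1.32 CPM at 24 h and 2.60 CPM at 4 h in WT. The largest negative differences were -7.11 for Nat8l, -5.20 for Cd101, -5.08 for Bmx, -4.53 for Fbxo31, -4.34 for Abhd15, -4.29 for Mettl7a1, -4.27 for Gpd1l and -4.14 for P2ry12. Nat8l, which makes N-acetylaspartate, had 3 counts in all at 24 h in libraries labelled CIS-/- and 5.42 ± 0.801 CPM at 4 h, a ratio of 4 h over 24 h of 79.2 (95% counting interval 27.1 to 384), so its fitted difference depends on the prior count. Shmt1, Abhd15 and P2ry12 overlap genes on the opposite strand, and Spp1 overlaps Gm42793 on the same strand.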

How the results depend on the processing

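The count of 8752 genes called between 24 h and 4 h lay between 7480 and 9083 under the alternatives, and between 8439 and 8721 with each library left out in turn. Between 85% and 99.8% of these calls were made again, all in the same direction. The share of calls that were higher ran from 48.1% to 50.8%. Of the named genes' changes, 2440 values kept their direction and side of the threshold and 4 turned sign, all within error of 0. These were Cish at 0.004 with RLE factors (edgeR adjusted p = 0.927), 0.002 with DESeq2 (adjusted p = 0.952) and 0.003 without replicate 3 at 24 h (edgeR adjusted p = 0.945; with each library left out, from -0.027 to 0.003), and Csf2rb at -0.015 with raw library sizes (edgeR adjusted p = 0.651). The 16 genes of the time by genotype test kept theirs in all 336 values. That test's counts moved with raw library sizes, to 2247 positive and 6154 negative, of which 1226 and 3327 were at least 2-fold; they were 3922, 3711, 2031 and 1628 with TMM factors. Its total lay between 7390 and 7633 with each library left out.

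Whether the replicate numbers pair the samples cannot be settled with 3 libraries a group. Deviations of same-numbered 24 h and 4 h libraries correlated at 0.16, -0.021 and 0.188 across genes. Those of differently numbered libraries correlated at between -0.202 and 0.079. With a replicate block 8735 genes were called between 24 h and 4 h, and 7635 in the time by genotype test.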

Other observations

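Ranked by the gain in CPM, which was done after the values were seen, iron storage and secreted proteins led. Fth1, the ferritin heavy chain, stood at 33566 ± 2425 CPM at 24 h and 19145 ± 938 CPM at 4 h in libraries labelled CIS-/-, and Ftl1, the light chain, at 11609 ± 785 CPM at 24 h and 3410 ± 115 CPM at 4 h. Ccl6, a chemokine of mouse myeloid cells, had 20146 ± 1495 CPM at 24 h and 7163 ± 151 CPM at 4 h, and Thbs1, the matrix protein thrombospondin-1, 10898 ± 929 CPM at 24 h and 2377 ± 56.2 CPM at 4 h. Hcar2, the niacin receptor, rose to 6377 ± 283 CPM at 24 h, against 743 ± 9.13 CPM at 4 h, and Sqstm1, the autophagy adaptor p62, to 5156 ± 165 CPM at 24 h, against 704 ± 31.1 CPM at 4 h.

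Among the largest losses by the same ranking were cytoskeletal genes beside the granule genes. Actb, beta-actin, fell to 6500 ± 260 CPM at 24 h, against 12390 ± 493 CPM at 4 h, and Myh9, non-muscle myosin IIA, to 2293 ± 222 CPM at 24 h, against 6482 ± 125 CPM at 4 h. Cd33, a sialic acid receptor of myeloid cells, had 1965 CPM at 24 h and 4779 CPM at 4 h, and Csf3r, the receptor of G-CSF, 2326 CPM at 24 h and 4900 CPM at 4 h.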
